A study of Mus musculus with 4 samples.

Results

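The tectorial membrane is the acellular gel that lies over the organ of Corti, and 6 genes for its non-collagenous glycoproteins were examined here: *Tecta*, *Tectb*, *Otog*, *Otogl*, *Otoa* and *Ceacam16*. Members were taken by gene symbol from a table of 12814 genes, and 5 of the 6 were listed in it. *Ceacam16*, which encodes a secreted adhesion protein of the tectorial membrane, was not in the table and has no value below. The cells were sorted from *Atoh1/nGFP* newborns of C57BL/6 strain, in which a nuclear green fluorescent protein marks hair cells (HCs). HCs were sorted as cells with both the fluorescent protein and the epithelial surface protein CD326, whereas epithelial non-sensory cells (ENSCs) carried CD326 alone. Both populations were taken from the cochlea and from the vestibular organs, and several mice were pooled for each sort.

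The tectorial membrane couples sound-driven motion to the stereocilia of the HCs, and it is secreted by the non-sensory epithelium beside and beneath it. Alpha-tectorin and beta-tectorin, the products of *Tecta* and *Tectb*, polymerise through zona pellucida domains into the striated sheet that holds the collagen fibrils of the membrane. Otogelin (*Otog*) and otogelin-like (*Otogl*) are large mucin-related proteins found in the tectorial membrane and also in the otoconial membranes and cupulae, the gels that cover the vestibular sensory patches. Otoancorin (*Otoa*) is anchored at the apical surface of the epithelium and attaches these gels to the non-sensory cells under them. In the cochlea *Otoa* is known from the interdental cells, and in the vestibular organs *Tectb* is known from the striola, the central zone of the maculae.

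Each population has 1 column in the table, called its library below. The design text of the series speaks of triplicates, and whether a column holds a single library or a combination of several is not clear from the sources used here. No value below therefore has a replicate error, no test between populations was possible and no p-value is given. The unit is a quantile-normalized signal with a floor of 20, and the sorted signals were identical in the 4 libraries (median 120), so the depth of each library is unknown. The lowest signal of any of the 5 genes was 61.5, above the low range of tied signals that reached from 20 in vestibular ENSCs to 30.5 in vestibular HCs. The labels were checked against marker genes. All 12 HC markers, *Pou4f3* and *Myo7a* among them, exceeded the ENSC signal 3-fold or more in each organ, against 8.39% of all genes in the cochlea and 13.8% in the vestibular organs. Supporting cell markers did not set ENSCs apart from HCs in this way. Of 12 supporting cell markers *Ngfr* alone had a cochlear ratio past 3-fold (20 in HCs and 65.75 in ENSCs, at least 2.71-fold lower given the tied range), and *Sox2* alone a vestibular one, being higher in HCs. These are 1 of 12 lower in the cochlea, near the 9.20% of all genes, and 1 of 12 higher in the vestibular organs, under the 13.8%. Their summed signal was 15587 in cochlear HCs, 14189 in cochlear ENSCs, 10777 in vestibular HCs and 5782.5 in vestibular ENSCs.

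The promoters of the tectorin pair are shown because their transcripts, although their products are partners, were distributed differently over the libraries. The 250 bases before the transcription start are given 5′ to 3′ from RefSeq, and they were located in the mm9 mouse genome by exact match, *Tecta* at chr9:42208031-42208280 on the minus strand and *Tectb* at chr19:55254966-55255215 on the plus strand. Capitals mark matches on either strand to a GATA motif (AGATAA), a SOX core (AACAAT), an RFX core (GTTGCC) or a TATA box (TATAAA).
Tecta: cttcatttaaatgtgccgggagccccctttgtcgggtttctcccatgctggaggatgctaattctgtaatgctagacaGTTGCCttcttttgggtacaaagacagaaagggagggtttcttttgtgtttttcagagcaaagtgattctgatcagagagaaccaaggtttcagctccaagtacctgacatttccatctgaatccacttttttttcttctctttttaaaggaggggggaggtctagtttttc
Tectb: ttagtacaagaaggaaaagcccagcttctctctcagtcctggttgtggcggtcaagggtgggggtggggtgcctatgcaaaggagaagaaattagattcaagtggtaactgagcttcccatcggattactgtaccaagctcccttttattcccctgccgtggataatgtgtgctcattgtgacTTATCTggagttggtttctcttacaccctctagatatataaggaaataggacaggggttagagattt
The *Tecta* window held 1 RFX core, found in 10.4% of the 32851 mouse promoters of this length, and the *Tectb* window held 1 GATA motif, found in 9.99%. Neither window held the SOX core (9.42% of promoters) or the TATA box (12.4%). The RefSeq windows of *Otog* and *Otoa*, and that of another *Tecta* start, at -1761 relative to the annotated gene start, held none of the 4 motifs. No RefSeq window was matched for *Otogl*. E-boxes (CANNTG, present in 66.2% of promoters) occurred in the windows of *Tecta*, *Tectb* and *Otog*, and 1 of them overlapped the RFX core of *Tecta*.

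The alpha-tectorin gene *Tecta* (ENSMUSG00000037705, mm9 chromosome 9, 42137702 to 42208012, minus strand) had signals of 4249 in cochlear HCs, 11861 in cochlear ENSCs, 535 in vestibular HCs and 4649 in vestibular ENSCs. The highest of these signals was in cochlear ENSCs and the lowest in vestibular HCs, 22.2-fold apart. HCs were lower than ENSCs in both organs, by a factor of 2.79 in the cochlea (log2 ratio -1.48) and of 8.69 in the vestibular organs (-3.12). Cochlear HCs exceeded vestibular HCs 7.94-fold, and this ratio stood above those of 99.5% of all genes.

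The beta-tectorin gene *Tectb* (ENSMUSG00000024979, chromosome 19, 55255223 to 55270803, plus strand) had 1195.5 in cochlear HCs, 7994.5 in cochlear ENSCs, 2435.5 in vestibular HCs and 1507 in vestibular ENSCs. Cochlear ENSCs again had the highest signal, but the lowest was in cochlear HCs, and in the vestibular organs HCs were above ENSCs. The HC signal was 6.69-fold lower than the ENSC signal in the cochlea (log2 ratio -2.74) and 1.62-fold higher in the vestibular organs (0.69). This combination, 3-fold or more below ENSCs in cochlear HCs with any excess in vestibular HCs, was found in 1.62% of the table, and *Tectb* was the only one of the 5 genes with that pattern.

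The otogelin gene *Otog* (ENSMUSG00000009487, chromosome 7, 53496357 to 53566804, plus strand) was highest in vestibular ENSCs, unlike the tectorin genes. Its signals were 899.5 in cochlear HCs, 1433 in cochlear ENSCs, 1857 in vestibular HCs and 10905 in vestibular ENSCs. The last of these held 72.2% of the signal summed over the libraries and was 7.61-fold above cochlear ENSCs. The HC to ENSC log2 ratio was -0.67 for the cochlea and -2.55 for the vestibular organs.

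The related gene *Otogl* (ENSMUSG00000091455, chromosome 10, 107199369 to 107349190, minus strand) had 532 in cochlear HCs, 2415 in cochlear ENSCs, 693 in vestibular HCs and 816 in vestibular ENSCs. Cochlear ENSCs stood apart, and the other libraries lay between 532 and 816. The log2 ratio of HCs to ENSCs was -2.18 for the cochlea and -0.24 for the vestibular organs. *Otog* and *Otogl* therefore had their highest signals in ENSCs of different organs.

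The otoancorin gene *Otoa* (ENSMUSG00000034990, chromosome 7, 128226836 to 128306611, plus strand) had 61.5 in cochlear HCs, 1081 in cochlear ENSCs, 218 in vestibular HCs and 2121 in vestibular ENSCs. Both ENSC signals were above both HC signals. The highest and lowest libraries were 34.5-fold apart, the widest range of the 5 genes in the signals as deposited. HCs were 17.6-fold lower in the cochlea (log2 ratio -4.14) and 9.72-fold lower in the vestibular organs (-3.28). The range and the cochlear ratio rested on the low signal of cochlear HCs. The cochlear log2 ratio was -3.43 with a floor of 100 and -2.87 with a pseudocount of 100. *Otoa* was the only one of the 5 genes at least 3-fold lower in HCs of both organs, a pattern held by 4.66% of all genes.

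**Figure D1:**
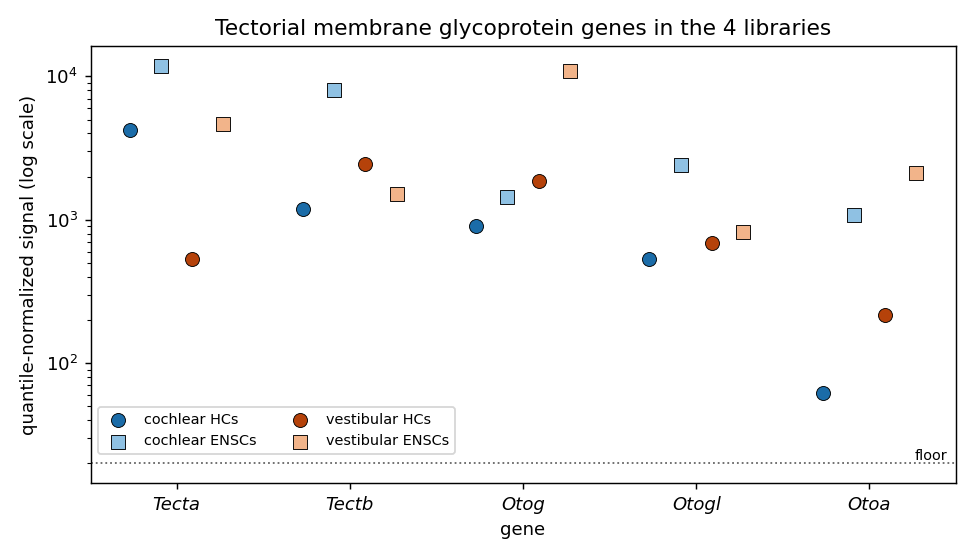
Quantile-normalized signal (log axis) of the 5 genes in the 4 libraries, with circles for HCs, squares for ENSCs and a dotted line at the floor of 20. The highest point of every gene is an ENSC library, and only *Tectb* has its vestibular HC signal (2435.5) above its vestibular ENSC signal (1507).

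The first comparison asked which of these genes distinguished HCs from the surrounding epithelium in each organ. Ratios of 3-fold or more were counted, a factor that the study also used. In the cochlea *Tectb*, *Otogl* and *Otoa* were at least 3-fold lower in HCs, which is 3 of 5 genes against 9.20% of all genes. In the vestibular organs *Tecta*, *Otog* and *Otoa* were, 3 of 5 against 14.3%. None of the 5 exceeded 3-fold in favour of HCs. Among the 2573 genes that reached 1000 in any library, to which all 5 belong, 14.3% were that much lower in cochlear HCs and 18.8% in vestibular ones. The median log2 ratio of the 5 tectorial membrane genes was -2.18 for the cochlea and -2.55 for the vestibular organs, where the medians of all genes were 0 and -0.0045.

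All 5 genes had their highest signal in an ENSC library, as did 54.8% of all genes, and in 1 organ or both all 5 were 3-fold or more lower in HCs, as were 18.9%. Across genes the vestibular ratios fell with GC content (Spearman's rho = -0.40) and had little trend with exonic length (rho = 0.049), over 10358 genes that are not independent replicates. After correction for GC content and length together the vestibular log2 ratio of *Otog*, with 58.2% GC in its exons, was -1.54 and no longer past 3-fold, whereas those of *Tecta* (-2.65) and *Otoa* (-2.68) were.

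**Figure D2:**
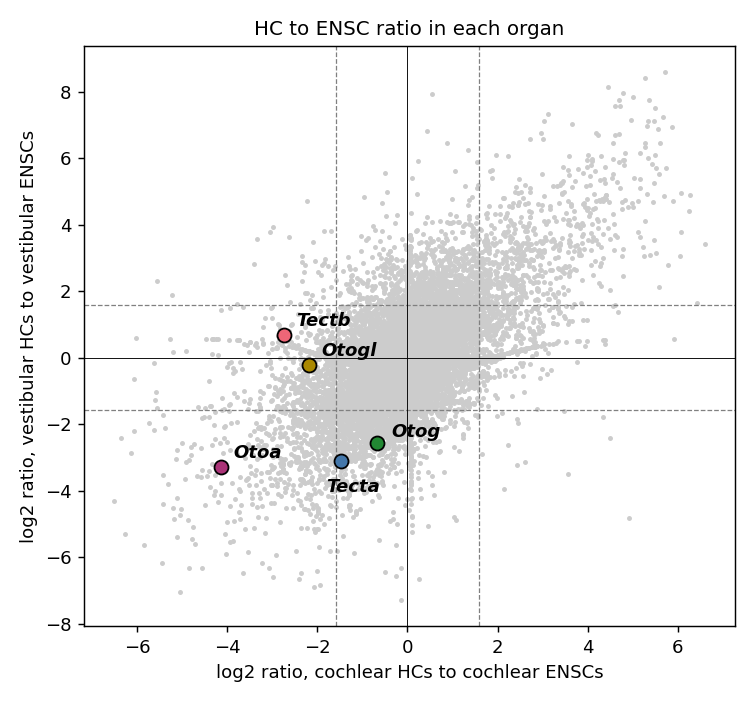
Log2 ratio of HCs to ENSCs in the vestibular organs against that in the cochlea for all genes (grey) and the 5 tectorial membrane genes (coloured), with dashed lines at 3-fold. *Otoa* lies past 3-fold on both axes (-4.14 and -3.28), *Tectb* and *Otogl* on the cochlear axis alone, and *Tecta* and *Otog* on the vestibular axis alone.

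For most of the genes the ratio was not alike in the organs. The vestibular log2 ratio minus the cochlear one was 3.43 for *Tectb* and 1.95 for *Otogl*, and it was -1.64 for *Tecta*, -1.88 for *Otog* and 0.85 for *Otoa*. Thus 4 of 5 genes differed by at least 3-fold between organs, 2 in each direction, where 21.4% of all genes did. With the correction for length and GC content the differences of *Tecta* (-1.13) and *Otog* (-0.83) were under 3-fold and those of *Tectb* (3.54) and *Otogl* (1.73) were not. *Tecta* was also under 3-fold with a pseudocount of 100 (-1.44) and with ratios centred on their median (-1.56).

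A number of marker genes moved between the same libraries, and their part in these differences was not tested. In vestibular HCs the sensory epithelium transcription factor *Sox2* reached 3961, against 466 in vestibular ENSCs. Of the 12 supporting cell markers, *Sox2* among them, 8 were higher in vestibular HCs than in vestibular ENSCs by any factor, 3 were lower and 1 was equal, where 50.1% of all genes were lower. For 3 of the 12, *Fgfr3* (higher), *Ngfr* (lower) and *Hes5* (equal), the HC signal lay in the tied range, which leaves their direction unset. *Jag1* (1712.5 and 761) was higher and *S100a1* (959 and 1582) lower, both by less than 3-fold. The epithelial markers went the other way, 5 of 5 being at least 3-fold lower in vestibular HCs (14.3% of all genes, summed signal 1758 against 21994) and 4 of 5 in cochlear HCs (9.20% of all genes, 7431 against 9905). The cochlear exception was *Cdh1*, which held most of the HC sum there (6003 in HCs and 4853 in ENSCs). *Epcam*, which encodes the sorting antigen CD326, had 1017 in cochlear HCs, 3376 in cochlear ENSCs, 1139 in vestibular HCs and 7511 in vestibular ENSCs. In bulk libraries such as these, fewer cells of a type and less RNA per cell cannot be told apart.

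The signal of the tectorial membrane genes in HC libraries was set beside that of genes known from the greater epithelial ridge and inner sulcus, the cochlear non-sensory epithelium medial to the HCs. In the cochlea the HC signal was 62.8% of the ENSC signal for *Otog*, 35.8% for *Tecta*, 22.0% for *Otogl*, 15.0% for *Tectb* and 5.69% for *Otoa*. The same share was 1.23% for *Epyc*, 1.49% for *Rspo2* and 9.93% for *Dcn*, but 61.2% for *Fgf10* and 303% for *Calb1*. For *Crabp1*, whose cochlear HC signal lay in the tied range, the HC signal was at least 19.9-fold lower. *Otoa* was thus between *Rspo2* and *Dcn*, and the other tectorial membrane genes were above *Dcn*. In the vestibular organs the ridge markers were divided. *Fgf10* (6891 in HCs and 684 in ENSCs) and *Calb1* (126 and 53) were higher in HCs, *Epyc* (210.0 and 1119) was lower, *Rspo2* and *Dcn* were at least 4.57-fold and 8.21-fold lower, and *Crabp1* lay in the tied range of both libraries. The vestibular share was 162% for *Tectb* and 85.0% for *Otogl*, whereas *Otog* (17.0%), *Tecta* (11.5%) and *Otoa* (10.3%) lay together. In the reverse direction the ENSC signal of the 12 HC markers was 2.07% to 25.2% of their HC signal in the cochlea and 0.532% to 26.0% in the vestibular organs, and 5 and 9 of these ENSC signals lay in the tied range. The cochlear end of 25.2% is *Lhx3*, with an ENSC signal at the floor. Of 8 mesenchyme markers 6 were in the table. Their summed signal was 176 in cochlear HCs, 4994 in cochlear ENSCs, 239 in vestibular HCs and 3648 in vestibular ENSCs, with *Tbx15* at the floor in 3 libraries and at 24 in vestibular ENSCs. In cochlear ENSCs *Ogn* (3231.5) and *Col1a2* (1618) held most of the sum, and the others had at most 58.25. *Ogn* was also the largest part in vestibular ENSCs (2067). Of 7 neuronal markers 4 were in the table. Their summed signal was 9349 in cochlear HCs, 5147 in cochlear ENSCs, 9639 in vestibular HCs and 399 in vestibular ENSCs. At least 3-fold higher were 3 of them in cochlear HCs (8.39% of all genes) and 4 in vestibular HCs (13.8%). *Isl1*, the exception in the cochlea (3682 in HCs), held most of both ENSC sums (4976 in cochlear and 339 in vestibular ENSCs). *Nefl*, *Nefm* and *Snap25* had at most 76.75 in either ENSC library. Among 4 glial markers the summed signal was 929, 2030.5, 487 and 3378 in the same order, and the endothelial *Kdr* had 1462 in vestibular ENSCs and at most 29.75 elsewhere. The part of these cell types in the signals of the tectorial membrane genes was not tested.

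**Figure D3:**
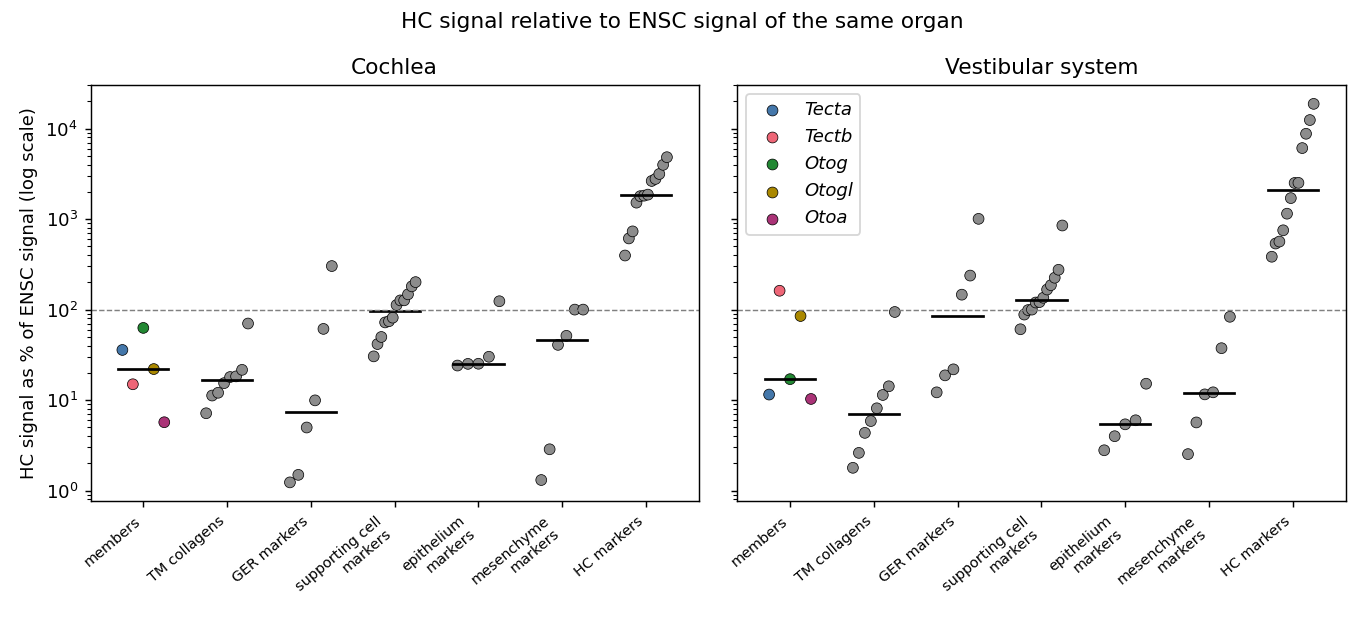
HC signal as a percentage of the ENSC signal of the same organ (log axis) for the 5 genes (coloured) and for listed genes (grey), where GER is the greater epithelial ridge, each point is a gene and black lines are group medians. All 12 HC markers lie at 384% or above in both organs, and among the 5 genes *Tectb* in the vestibular organs (162%) is the only point above 100%.

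The second comparison was between organs within a cell population. In ENSCs *Tectb* (5.30-fold) was at least 3-fold higher in the cochlea, 1 of 5 genes against 7.80% of all genes, and *Otog* was at least 3-fold lower, 1 of 5 against 7.94%. Among genes that reached 1000 these shares were 10.4% and 9.76%. *Otogl*, 2.96-fold higher in cochlear ENSCs, was just under the threshold, *Tecta* was 2.55-fold higher, and *Otoa* was 1.96-fold lower. These ENSC ratios also fell with GC content across genes (rho = -0.45 over 10475 genes), and after correction the log2 ratio of *Otog* was -2.04 in place of -2.93 and that of *Tecta* 1.69, past 3-fold, in place of 1.35.

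In HCs the order was different. *Tecta* was the only gene higher in the cochlea (log2 ratio 2.99, past 3-fold, against 4.21% of all genes), and the other 4 were lower there by any factor, as were 46.5% of all genes. Of these *Otoa* was past 3-fold (log2 ratio -1.83, 5.09% of all genes), whereas *Otog* (-1.05), *Tectb* (-1.03) and *Otogl* (-0.38) were not. Among genes that reached 1000 the shares past 3-fold were 3.85% higher and 5.52% lower in cochlear HCs. The *Otoa* value rested on a low signal, and with a floor of 100 its log2 ratio was -1.13. The tectorins thus had opposite organ ratios in HCs but the same direction in ENSCs. Among the 5 epithelial markers *Cdh1*, the epithelial cadherin gene, was the only one past 3-fold in HCs. Like *Tecta* it was higher in the cochlea (6003 and 178.5), which is 1 of 5 against 4.21% of all genes. *Epcam* (1017 and 1139), *Cldn6* (log2 ratio 0.22), *Krt18* (-0.24) and *Krt8* (-1.32, its cochlear signal in the tied range) were within 3-fold.

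**Figure D4:**
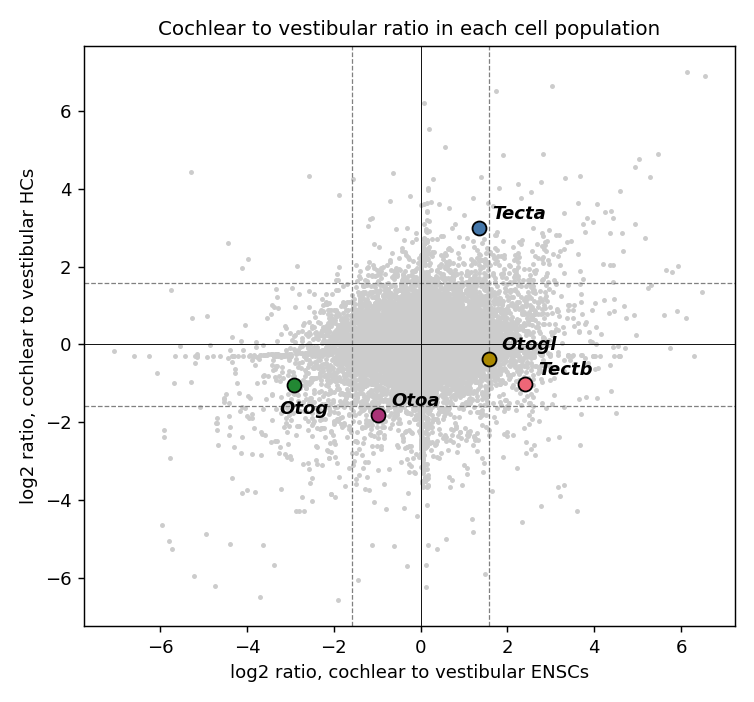
Log2 ratio of cochlear to vestibular HCs against that of cochlear to vestibular ENSCs for all genes (grey) and the 5 genes (coloured), with dashed lines at 3-fold. *Tecta* is the highest of the 5 on the HC axis (2.99), and *Tectb* (2.41) and *Otog* (-2.93) lie at opposite ends of the ENSC axis.

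To compare levels of different genes the signal was divided by exonic length. In cochlear ENSCs *Tectb* (2093 per kb) and *Tecta* (1600 per kb) ranked above 99.3% and 98.9% of all genes, followed by *Otogl* (346), *Otoa* (252) and *Otog* (143 per kb). In vestibular ENSCs *Otog* led with 1086 per kb, above 98.0% of all genes, followed by *Tecta* (627), *Otoa* (495), *Tectb* (394.5) and *Otogl* (117 per kb). Between these libraries the share of *Otog* in the summed length-scaled signal of the 5 genes was 3.22% in cochlear and 39.9% in vestibular ENSCs, and that of *Tectb* was 47.2% and 14.5%.

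In cochlear HCs *Tecta* (573 per kb) and *Tectb* (313 per kb) again led, whereas in vestibular HCs *Tectb* (638 per kb) was first and *Tecta* (72.2 per kb) came after *Otog* (185) and *Otogl* (99.3 per kb). The ratio of *Tecta* to *Tectb* per kb was 0.765 in cochlear ENSCs, 1.83 in cochlear HCs, 1.59 in vestibular ENSCs and 0.113 in vestibular HCs. For the otogelins the ratio of *Otog* to *Otogl* per kb was 0.412 in cochlear ENSCs, 1.17 in cochlear HCs, 1.86 in vestibular HCs and 9.29 in vestibular ENSCs. Only ratios between libraries are free of the length used. The annotated exons of *Tectb* cover 3820 bases and its longest coding sequence 1020, and per kb of coding length *Tectb* was first in all 4 libraries.

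**Figure D5:**
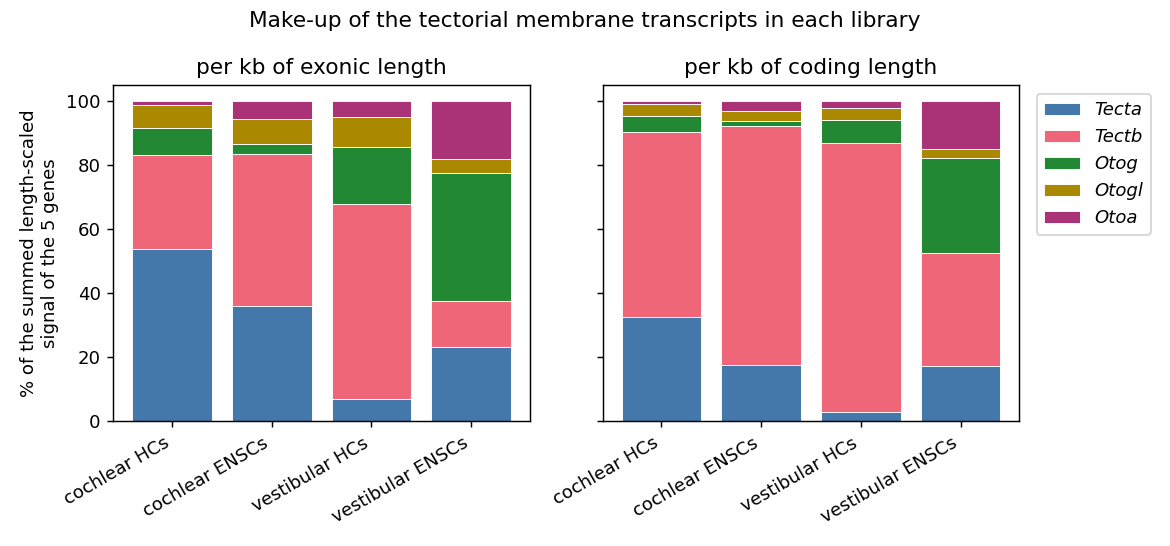
Share of each gene in the summed length-scaled signal of the 5 genes, by library, with lengths taken from all annotated exons (left) or from the longest coding sequence (right). *Otog* takes 39.9% of the exon-scaled signal in vestibular ENSCs and 3.22% in cochlear ENSCs, and *Tectb* takes the largest part of vestibular HCs on both scales (61.0% exon-scaled, 83.8% coding-scaled).

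The likeness of the profiles was measured as the Euclidean distance of the 4 log2 signals after each gene was centred on its own mean, over 4 libraries. Among the 5 genes *Tectb* and *Otogl* were closest, at a distance of 0.772, and 0.297% of the 6726 protein-coding genes that reached 200 in any library were closer to *Tectb*. More than 1% were closer to *Otogl*, for which the 1st percentile of distances was 0.757. *Tecta* and *Tectb* were 3.20 apart, with 34.7% of those genes closer to *Tecta*, and *Otog* and *Otogl* were 3.24 apart, with 56.8% closer to *Otog*. The genes nearest to *Tecta* in the table were *Fstl1* (distance 0.39; signals of 5780 in cochlear HCs, 16413 in cochlear ENSCs, 1017 in vestibular HCs and 6965 in vestibular ENSCs), *Lypd6* (0.55) and *Egfl6* (0.62), and the vestibular HC signals of the last pair were inside the tied range. Those nearest to *Tectb* were *Zfp931* (0.14), *Sdpr* (0.28) and *Cmpk2* (0.33). *Otog* was followed most closely by *Dusp4* (0.14), *Fam129b* (0.21, with its cochlear HC signal inside the tied range) and *Myc* (0.25). *Otogl* had *Dsel* (0.24), *Spin4* (0.30) and *Cadm1* (0.31) as neighbours, and *Otoa* had *B2m* (0.13), *Smoc1* (0.64) and *Arl4c* (0.67). With 4 values per gene such distances describe these libraries only.

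The collagens of the tectorial membrane form the fibrils within the tectorin sheet, and all 8 listed genes were in the table. At least 3-fold lower in HCs were 7 of the 8 in the cochlea, against 9.20% of all genes, and 7 of the 8 in the vestibular organs, against 14.3%, *Col5a2* being the exception in both with signals from 20 to 28.5. The median log2 ratio of the list was -2.59 for the cochlea and -3.86 for the vestibular organs. *Col2a1*, the chain of type II collagen, had 978 in cochlear HCs, 5439 in cochlear ENSCs, 400 in vestibular HCs and 22405 in vestibular ENSCs. *Col9a3*, a chain of type IX collagen, had 313.5, 2793, 171 and 6555 in the same order, and *Col9a2* had log2 ratios of -2.70 and -4.53 and *Col11a2* of -2.21 and -4.09 in cochlea and vestibular organs. Between the ENSC libraries 6 of the 8 were lower in the cochlea by any factor, where 47.1% of all genes were, and 1 of the 8 (*Col2a1*) by 3-fold or more, against 7.94% of all genes. The exceptions were *Col5a2* and *Col11a1*, a chain of type XI collagen with 20413 in cochlear and 10955.5 in vestibular ENSCs. No collagen therefore had the vestibular HC excess of *Tectb*.

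Genes for the attachment of the membrane to hair bundles and for protein processing were listed as well. *Strc* encodes stereocilin, a relative of otoancorin that links outer HC stereocilia to the tectorial membrane. Its signals were 325 in cochlear HCs and 217.5 in vestibular HCs, at least 14.3-fold and 10.9-fold above the ENSCs of the same organ, so that *Otoa* and *Strc* lay on opposite sides of the HC to ENSC comparison. *Mslnl*, another relative, exceeded ENSCs at least 5.68-fold in cochlear HCs and 7.58-fold in vestibular HCs, and *Msln* stayed at 20 in the cochlea, with 22 in HCs and 68 in ENSCs of the vestibular organs. *Hpn* encodes hepsin, a serine protease needed for a normally shaped tectorial membrane in mice. It had 27.5 in cochlear HCs, 43.75 in cochlear ENSCs, 23.5 in vestibular HCs and 95.0 in vestibular ENSCs, the vestibular HC signal being at least 3.11-fold lower. Among the proprotein convertases *Furin* was past 3-fold lower in vestibular HCs (80.0 and 336), *Pcsk5* was past 3-fold higher there (590 and 182), and *Pcsk6* and *Pcsk7* were within 3-fold in both organs.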

How the data were processed

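RNA of the sorted populations was amplified (NuGEN Ovation) before sequencing. For each gene the file holds a deposited signal. To make it, the authors trimmed reads to 50 nt, mapped them to mm9 (TopHat), counted them over ENSEMBL genes (HTSeq), kept genes with at least 20 reads, quantile-normalized the 4 columns and set a floor of 20. Tool versions, annotation release and strandedness are not given in the sources used here. Quantile normalization removes overall differences between libraries, so that depth is unknown and a global shift is invisible, and length is not accounted for.

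Source names gave the groups and titles the columns, and a column called non-HC was read as the ENSCs of that organ. Log2 ratios of the deposited signal were computed without a pseudocount and counted from 3-fold. Where a signal lay in the tied low range of its library, folds are lower bounds against the top of that range. Positions, exonic and coding lengths and GC content came from GENCODE for NCBIM37, which is mm9 and held 12799 of the 12814 genes. No other annotated gene overlaps any of the 5 genes. Promoters came from the RefSeq table (GRCm38.p6) and were placed in mm9 by exact match. Trends on length and GC were fitted by lowess (fraction 0.3, 2 robust iterations). The correction was tested on simulated data that held a GC trend but no trend on length. Python 3.11.15, pandas 2.3.3 and statsmodels 0.14.6 were used.

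The rule for named genes was the members, the 3 nearest profiles of each, and listed genes by size of ratio. Marker genes and *Col11a1*, *Col5a2*, *Otol1* and *Sparcl1* were named with their values in view. The members and lists were chosen with earlier results of these data known. Protein sequences were not used here.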

Additional observations from a re-analysis of the deposited data

Results flagged for a closer look

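*Tectb* went in opposite directions in the organs, its log2 ratio of HCs to ENSCs being -2.74 for the cochlea but 0.69 for the vestibular organs. With 1 column per population this difference was not tested, and the vestibular ratio itself was under 3-fold.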

How the results depend on the processing

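Of 140 recomputed log2 ratios of the 5 genes none that was past 3-fold changed sign, and 131 stayed within 1.5-fold and on their side of the 3-fold threshold. The alternatives were floors of 50 and 100, the tied range raised to its top, pseudocounts of 20 and 100, centring, and correction for length and GC content. The number of genes at least 3-fold apart between HCs and ENSCs was 3 in each organ. In the cochlea it was 4 with a threshold of 2-fold and 2 with one of 5-fold, in the vestibular organs it was 2 after the length and GC correction, which removed *Otog*, and it was 3 under the other alternatives run. Between cochlear and vestibular HCs it was 2, but 1 with a floor of 100, a pseudocount of 20, a pseudocount of 100 or a threshold of 5-fold, and 4 with a threshold of 2-fold. Between ENSCs it was 2, but 3 after the length and GC correction, which added *Tecta*, and 4 with a threshold of 2-fold. The number of genes whose HC to ENSC ratio differed by at least 3-fold between organs was 4, but 3 with a pseudocount of 100 or after centring, where *Tecta* was lost, and 2 after the length and GC correction, where *Tecta* and *Otog* were. The alternatives for this count were chosen after seeing the data. The order of the genes by level per kb of exonic length was the same in 2 of the 4 libraries when coding length was used. The cause was not tested. No paired analysis was possible because each group has 1 column in the table. The absence of replicates and the unknown depth limit every comparison.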

Other observations

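Relatives of the tectorial membrane genes by protein domain were mostly not in the table: 2 of 12 zona pellucida domain genes, 3 of 10 mucin-related genes and 1 of 6 carcinoembryonic antigen family genes were listed. *Zpld1*, a zona pellucida domain gene of the vestibular cupula, had 360.0 in cochlear HCs, 232 in cochlear ENSCs, 12099 in vestibular HCs and 12912 in vestibular ENSCs. Its vestibular signals were 33.6-fold and 55.7-fold above the cochlear ones in HCs and ENSCs, and within an organ the populations were less than 3-fold apart. *Tgfbr3*, which encodes a co-receptor for TGF-beta, was lower in HCs than in ENSCs of both organs (78.5 and 249 in the cochlea, 59.75 and 1088 in the vestibular organs). *Bmper*, a secreted regulator of BMP signalling with a von Willebrand factor D domain, had 381 in cochlear ENSCs and at most 114 elsewhere. *Muc5b* and *Muc6* had at most 42.5 in any library, and *Ceacam1* was at the floor in 3 libraries and at 38.75 in vestibular ENSCs.

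Genes of the otoconial membrane and cupula made a vestibular counterpart to the list. Of 12 genes 10 had a row (*Noxo1* and *Pla2g2e* had none), of which 6 were at least 3-fold lower in cochlear than in vestibular ENSCs, against 7.94% of all genes, and 1 was at least 3-fold higher (7.80% of all genes). The last was *Atp2b2*, a plasma membrane calcium pump gene, with 447.5 in cochlear and 128 in vestibular ENSCs. *Oc90*, which encodes the main otoconial matrix protein, had 463 in cochlear HCs, 5342 in cochlear ENSCs, 644 in vestibular HCs and 37324 in vestibular ENSCs, an ENSC ratio between organs of 6.99-fold. *Otol1*, an inner ear collagen of the otoconial matrix, had 702, 1223, 1647 and 4853 in the same order. *Nox3*, an oxidase needed for otoconia, had 2604 in vestibular ENSCs, at least 85.4-fold above vestibular HCs. *Sparc* (62028.5 in vestibular ENSCs, 16060 in cochlear ENSCs) shared the vestibular direction, whereas *Sparcl1* (3931 and 5752.5) did not.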
